A study of Homo sapiens with 6 samples.

Results

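Cytosolic ribosomal protein genes were taken from the count table of the study by name: a gene symbol of RPL or RPS followed by digits, with an optional closing letter or L, or one of RPLP0, RPLP1, RPLP2 and RPSA, with the RPS6K kinases left out. The rule found 83 genes of 14034 in the table, 51 of the large (60S) subunit and 32 of the small (40S) subunit. The study measured messenger RNA by RNA-seq in JHH-4, an established line of human hepatocellular carcinoma. Its 3 control libraries carry the genotype label WT, and its other 3 libraries come from cells made to overexpress hsa-miR-885-5p, a microRNA, from a plasmid holding the primary transcript. The sources used here do not say whether the control cells received an empty plasmid. Replicates are described as technical in the design text, and a p-value below therefore covers the spread between such libraries, not between separate cultures. The level of miR-885-5p itself was not analysed here, and the labels give no sequencing date or batch.

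A ribosome is built from ribosomal RNAs and one copy of nearly every ribosomal protein, so cells make these proteins in matched amounts, and copies that find no partner are degraded. Their messenger RNAs are among the most abundant and shortest in a growing cell, and most begin with a tract of pyrimidines (C or T), the 5′ terminal oligopyrimidine or TOP motif, through which mTOR signaling and the protein LARP1 control their translation and stability. In liver tumor cells, as in other dividing cells, ribosome production follows growth, and free RPL5 and RPL11 can bind MDM2, a ubiquitin ligase.

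Most ribosomal protein messenger RNAs were more abundant with miR-885-5p, by small amounts. In edgeR's quasi-likelihood test with Benjamini-Hochberg adjustment over all genes, at a threshold of 0.05, 63 of the 83 rose, 4 fell and 16 did not pass. Over all 14034 genes, 26.3% were called higher and 26.5% lower. The median log2 fold change (miR-885-5p over control) of the 83 was 0.27 against -0.00 over all genes, and it ranged from -0.65 for RPL10L to 0.73 for RPS21, so that no member changed as much as 2-fold. All 3 miR-885-5p libraries lay above all 3 control libraries for 61 members and below them for 4, where 30.2% of all genes lay above and 30.3% below. All 14034 rows of the deposited table passed the filter on low counts, the 83 among them, so no row was left out of these counts. The smallest sum of a row over the 6 libraries was 194 counts, so genes with fewer counts were not in the table. In bulk RNA of this kind, fewer cells of a type and less RNA per cell cannot be told apart.

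**Figure D1:**
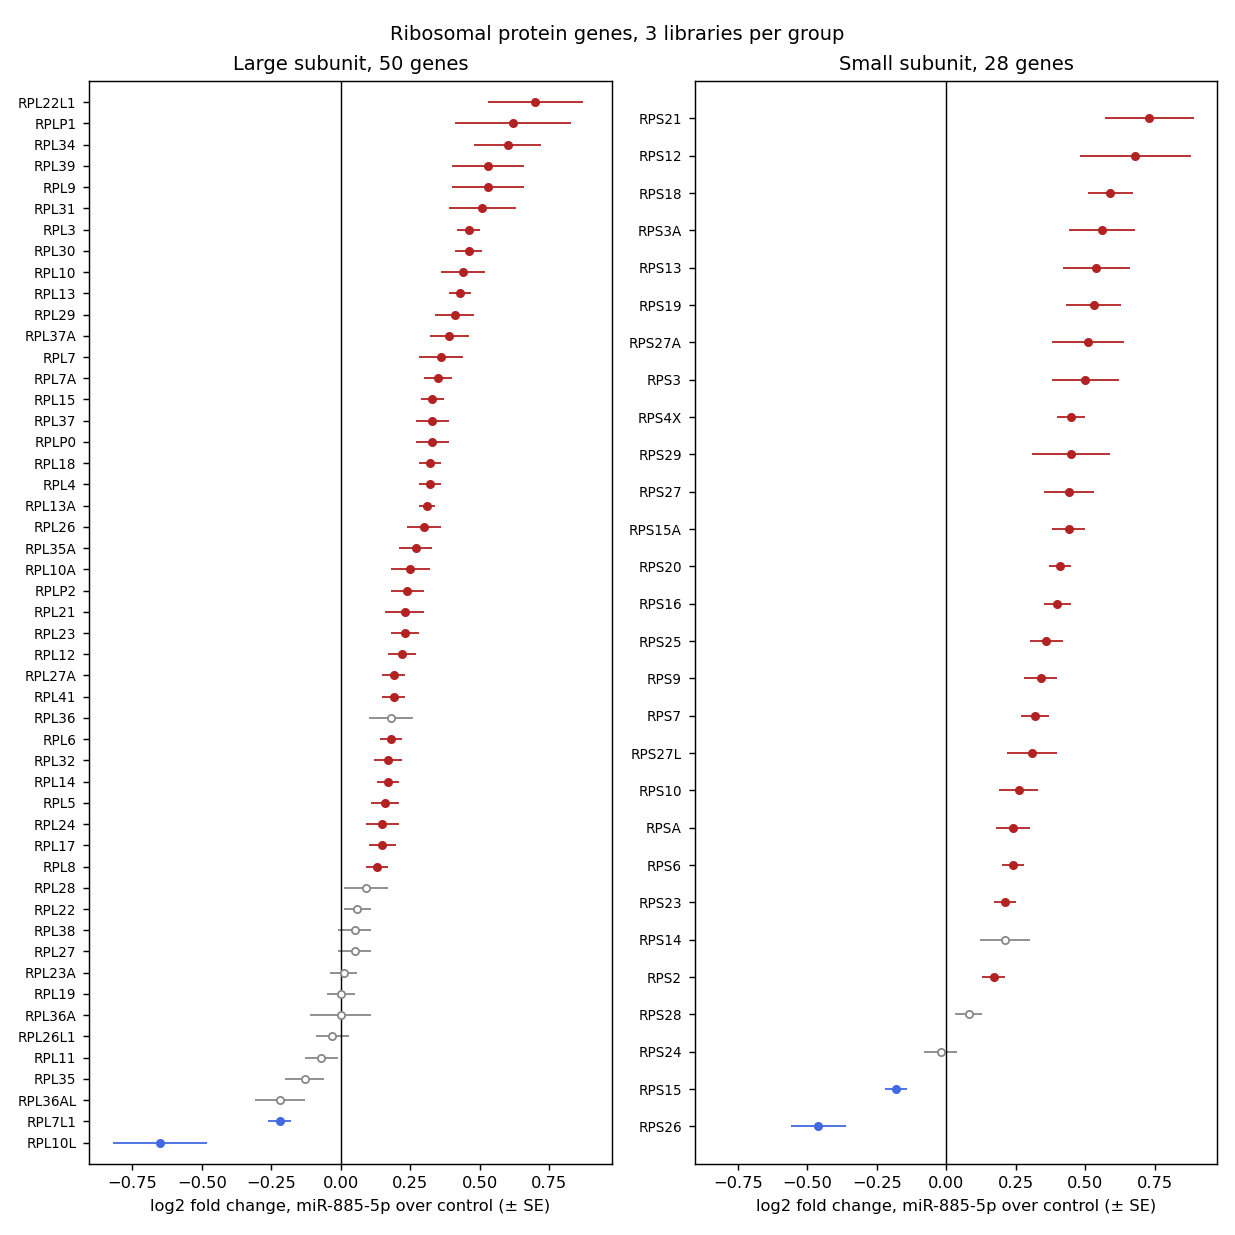
Log2 fold change of each ribosomal protein gene (horizontal axis, miR-885-5p over control, with its standard error) for 50 of the 51 large subunit and 28 of the 32 small subunit genes, 3 libraries per group. Filled red points rose, filled blue points fell and open grey points did not pass the threshold on the adjusted p; the points run from -0.65 (RPL10L) to 0.73 (RPS21).

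Total counts ran from 46382314 to 56409821 per library. Marker genes of cell types were looked at, though these cannot establish the identity of the line. Of 5 epithelial markers, KRT8, KRT18 and KRT19 had a row. Their summed level was 3342 to 3440 CPM in controls and 2811 to 2907 CPM with miR-885-5p. CPM are counts scaled to library size, as edgeR computes them, with the trimmed mean of M values (TMM). KRT8 and KRT19 were lower with miR-885-5p (log2 fold changes -0.29 and -0.25, edgeR adjusted p = 7.32e-05 and 2.05e-04). KRT18 did not pass (-0.08, edgeR adjusted p = 0.252). The 3 of 4 mesenchymal markers with a row summed to 32.1 to 36.0 CPM in controls and 40.8 to 42.5 CPM with miR-885-5p. Of these, PDGFRB was higher (log2 fold change 1.03, edgeR adjusted p = 4.90e-06). COL1A1 and VIM did not pass (0.16 and -0.14, edgeR adjusted p = 0.6 and 0.0994). The endothelial marker PECAM1, 1 of 3 with a row, stood at 0.445 to 0.954 CPM in controls and 1.2 to 1.7 CPM with miR-885-5p. Its log2 fold change was 1.06 (edgeR adjusted p = 0.0135). The part of these markers in the members' values was not tested. Leukocyte markers were represented by CD68 alone, at 116 to 138 CPM in all 6 libraries. Of 8 hepatocyte markers, SERPINA1 alone had a row, at 7.05 to 9.73 CPM, so albumin, the apolipoproteins and HNF4A could not be checked. Members have many near-identical pseudogenes, 91 by name for RPL23A, 74 for RPSA, 66 for RPL21 and 61 for RPL7, and the sources used here do not say how reads shared with them were counted. A coding gene overlaps 29 members on the opposite strand and 9 on the same strand, among them PIK3C2A at RPS13 and read-through genes at RPL17, RPL36A and RPS10. The levels of these members are uncertain to that extent.

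The starts of the genes whose values stood out are printed first, because the pyrimidine tract lies there. Each window covers 40 bases before and 40 bases from the start that RefSeq annotates on GRCh38.p14, 5′ to 3′ on the gene's strand, with the longest run of C or T that reaches within 5 bases of the start in capitals. Members with a large rise are RPS21 at chr20:62387063-62387142 (plus strand), RPS12 at chr6:132814529-132814608 (plus strand), RPLP1 at chr15:69452778-69452857 (plus strand), RPL34 at chr4:108620536-108620615 (plus strand) and RPS18 at chr6:33272035-33272114 (plus strand).
RPS21: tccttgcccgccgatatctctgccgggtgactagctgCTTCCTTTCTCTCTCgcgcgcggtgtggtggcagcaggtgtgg
RPS12: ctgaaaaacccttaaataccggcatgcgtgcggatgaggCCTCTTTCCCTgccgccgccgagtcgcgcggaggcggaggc
RPLP1: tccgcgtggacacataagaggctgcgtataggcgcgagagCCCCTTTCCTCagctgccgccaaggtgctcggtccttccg
RPL34: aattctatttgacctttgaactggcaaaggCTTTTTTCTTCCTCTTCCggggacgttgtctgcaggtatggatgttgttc
RPS18: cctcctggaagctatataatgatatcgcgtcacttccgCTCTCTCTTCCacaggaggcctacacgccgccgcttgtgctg
The pair RPL22, at chr1:6199556-6199635 (minus strand), and RPL22L1, at chr3:170870156-170870235 (minus strand), is shown because RPL22L1 rose and RPL22 did not pass.
RPL22: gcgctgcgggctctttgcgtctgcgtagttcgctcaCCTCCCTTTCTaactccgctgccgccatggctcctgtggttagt
RPL22L1: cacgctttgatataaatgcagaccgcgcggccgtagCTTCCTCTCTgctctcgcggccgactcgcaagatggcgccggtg
Members that fell are RPS26 at chr12:56041878-56041957 (plus strand), RPS15 at chr19:1438356-1438435 (plus strand), RPL7L1 at chr6:42879576-42879655 (plus strand) and RPL10L at chr14:46651742-46651821 (minus strand).
RPS26: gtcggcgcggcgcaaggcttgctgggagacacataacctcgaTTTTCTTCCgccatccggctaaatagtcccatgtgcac
RPS15: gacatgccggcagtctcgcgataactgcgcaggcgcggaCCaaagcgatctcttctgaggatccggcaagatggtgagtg
RPL7L1: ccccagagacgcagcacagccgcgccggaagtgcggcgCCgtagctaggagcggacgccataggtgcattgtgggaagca
RPL10L: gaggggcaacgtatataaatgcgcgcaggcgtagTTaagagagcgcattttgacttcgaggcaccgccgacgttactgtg
The runs of the 5 risers are 15, 11, 11, 18 and 11 bases long. Not all risers have such runs: RPS3A, RPS4X and RPS27A also rose, with runs of 7, 5 and 3 bases. All members with a promoter sequence are counted below. Among the 4 that fell, the run of RPS26 is 9 bases long and those of RPS15, RPL7L1 and RPL10L are 2 bases long. Runs more than 5 bases from the annotated start were not scored, such as tctcttct further down the RPS15 window.

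RefSeq gave a promoter sequence for 68 of the 83 members. The 15 without one include RPL5, RPL7, RPL8, RPL23, RPL23A, RPL30, RPL37, RPS2, RPS15A and RPS20. A run of at least 8 C or T bases at the start was found in 49 of the 68 (72.1%), against 11.1% of the 9814 other genes of the table with a promoter, and the median run was 11 bases in members and 4 in the others. Of the 49 members with such a run, 38 rose, 1 fell (RPS26) and 10 did not pass, with a median log2 fold change of 0.30. Of the 19 with a shorter run, 12 rose, 3 fell and 4 did not pass, with a median of 0.22. RPL3, with a run of 5 bases, was among the members that rose, so the run as scored does not divide the members that rose from those that fell. A tract further from the annotated start is missed by this score. RPL32 was scored at 5 bases, though a longer run lies further downstream in its window. A shorter run therefore does not show that a member lacks the tract.

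Other motifs were searched on both strands of the 300 bases from 250 before to 50 after the start. The ETS family motif CCGGAAG, which GABPA binds, was found in 33.8% of member promoters and 19.6% of the others, and the YY1 motif AAGATGGC in 10.3% and 5.51%. The SP1 motif GGGCGG was less common in members than in the others, at 54.4% against 70.1%, as was the E-box CACGTG that MYC and MAX bind, at 5.88% against 10.3%. The letters TATAAA stood in 10.3% of member promoters and 5.43% of the others. These are matches of letters only.

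By library, the 83 genes together held 4.80%, 4.56% and 5.06% of all counts in controls 1, 2 and 3, and 6.16%, 5.92% and 5.97% in the miR-885-5p libraries. Every miR-885-5p library was above every control library, and the mean share was 4.81% ± 0.249 (SD, n = 3) in controls and 6.02% ± 0.124 (SD, n = 3) with miR-885-5p, a difference of 1.21 percentage points. The share of counts from genes encoded in the mitochondrial genome was 5.43%, 6.37% and 4.45% in the controls and 4.80%, 4.46% and 4.82% with miR-885-5p. Control 3 thus had the highest member share and the lowest mitochondrial share of the controls, and control 2 the reverse. The part of this in the members' values was not tested.

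**Figure D2:**
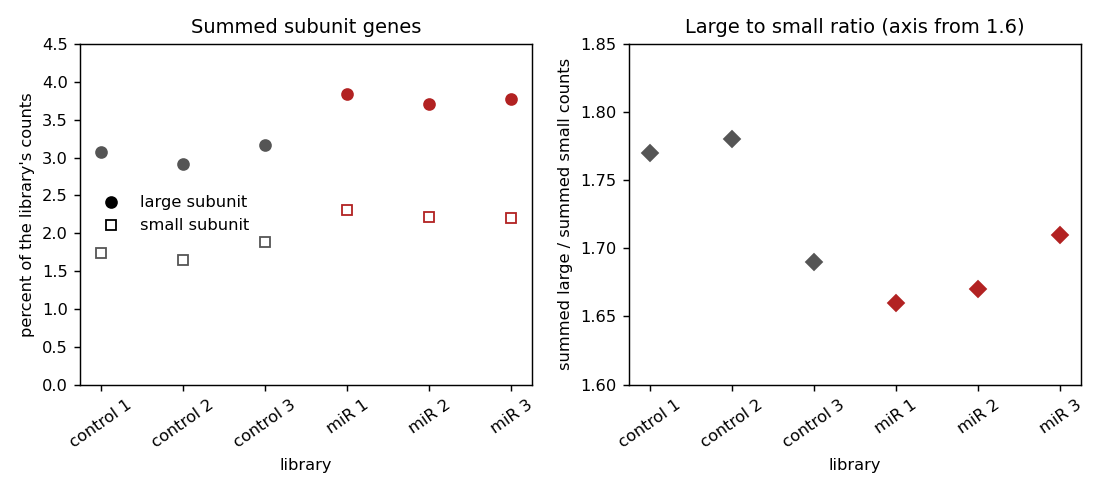
Left, percent of each library's counts (vertical axis) held by the large subunit genes (circles) and the small subunit genes (open squares) in 3 control (grey) and 3 miR-885-5p (red) libraries; right, the ratio of the summed counts on an axis that starts at 1.6. Both shares are higher in every miR-885-5p library, and the ratio of control 3 (1.69) lies below that of miR-885-5p library 3 (1.71).

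Both subunits took part. Of the 51 large subunit genes, 37 rose, 2 fell and 12 did not pass, with a median log2 fold change of 0.23. Of the 32 small subunit genes, 26 rose, 2 fell and 4 did not pass, with a median of 0.38. The large subunit's share of counts went from 3.05% ± 0.13 to 3.77% ± 0.0681 and the small subunit's from 1.75% ± 0.121 to 2.24% ± 0.0624 (SD, n = 3 each), which is 1.24-fold and 1.28-fold. The ratio of summed large to summed small counts was 1.77, 1.78 and 1.69 in the controls and 1.66, 1.67 and 1.71 with miR-885-5p. The groups overlap in this ratio through control 3, so the subunits cannot be said to have shifted against each other in total.

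**Figure D3:**
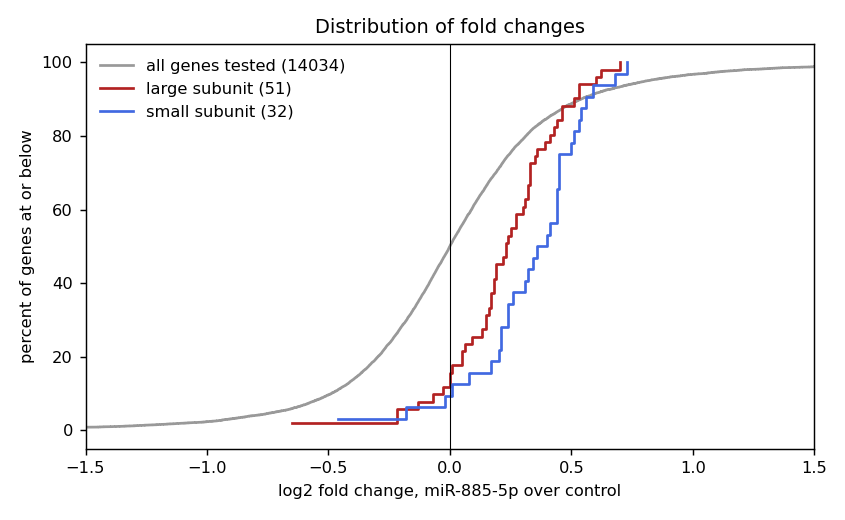
Cumulative percent of genes (vertical axis) at or below each log2 fold change (horizontal axis, miR-885-5p over control) for all 14034 genes, the large subunit genes and the small subunit genes; the axis shows -1.5 to 1.5. Over most of their height both subunit curves lie to the right of the curve of all genes, with medians of 0.23 and 0.38 against -0.00, and they cross it near the top, where no member exceeds 0.73.

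The members are short and abundant, so other genes with each of those traits in turn were set beside them. No set combined both traits. Among the 2066 other genes with a mean of at least 100 CPM, 471 were called higher and 935 lower, and the median log2 fold change was -0.09; 77 members reach that level. Length was that of a gene's longest coding transcript. Among the 2455 other genes of the shortest of 5 length classes (up to 1999 bases), the median was -0.02, and 59 members belong to it.

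Between genes, levels were compared per length as deposited FPKM (fragments scaled to transcript length and library size). RPS2, a small subunit protein near the messenger RNA entry, stood highest at 2450 ± 64.9 FPKM in controls and 2858 ± 32.2 with miR-885-5p (SD, n = 3). RPL13A, RPLP0, RPL19 and RPS16 followed, at 2100, 1910, 1898 and 1408 FPKM in controls; RPLP0 and RPL19 lie within their SDs of each other there. The lowest 5 were all paralogues, that is, second copies of a ribosomal protein gene: RPL7L1, RPL26L1, RPL22L1, RPS27L and RPL10L, from 46.4 down to 4.13 FPKM in controls, of which RPS27L (4.75 ± 0.18) and RPL10L (4.13 ± 0.52) lie close together. Without paralogues, the highest mean was 44.0 times the lowest, that of RPL37. Proteins held in equal number in the ribosome therefore had unequal FPKM values here, while the medians of the subunits were 531 FPKM (large) and 563 FPKM (small). FPKM values also depend on the transcript length assigned to each gene. RPL37 and RPS27 stood at 288 and 266 CPM in controls, but at 57.3 and 660 FPKM. The part of assigned length in the span was not tested.

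In the small subunit, RPS21 had the largest rise of all members. It encodes a small protein of the solvent side and stood at 113, 100 and 167 CPM in controls and 234, 214 and 183 CPM with miR-885-5p. The groups did not overlap, and the log2 fold change was 0.73 ± 0.16 (SE, edgeR adjusted p = 0.00406). RPS12, a protein of the 40S head, stood at 283, 221 and 436 CPM in controls and 541, 523 and 440 CPM with miR-885-5p, so control 3 came within a few CPM of the lowest miR-885-5p library. Its log2 fold change was 0.68 ± 0.20 (edgeR adjusted p = 0.0161), and the call was lost with DESeq2 (adjusted p = 0.0516), without control 1 (0.0622), without miR-885-5p library 1 (0.0577) and without miR-885-5p library 2 (0.0542).

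RPS18, a head protein next to the transfer RNAs, stood at 591, 547 and 690 CPM in controls and 968, 892 and 895 CPM with miR-885-5p. The groups were well apart, with a log2 fold change of 0.59 ± 0.08 (edgeR adjusted p = 1.32e-04). RPS3A, of the 40S platform, rose from 721 ± 146 to 1063 ± 63.8 CPM (SD, n = 3), a log2 fold change of 0.56 (edgeR adjusted p = 0.00274). RPS13, which contacts the large subunit, rose from 204 ± 40.9 to 297 ± 16.3 CPM (SD, n = 3), a log2 fold change of 0.54 (edgeR adjusted p = 0.00312). Neither gene's groups overlapped. RPS20, another head protein, had the smallest adjusted p of the subunit, at 283, 285 and 306 CPM in controls and 392, 390 and 381 CPM with miR-885-5p (log2 fold change 0.41 ± 0.04, edgeR adjusted p = 2.26e-05).

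RPS6, the substrate of the S6 kinases, stood at 1226, 1203 and 1175 CPM in controls and 1461, 1338 and 1458 CPM with miR-885-5p. It rose by 0.24 ± 0.04 on the log2 scale (edgeR adjusted p = 0.00124), with no overlap. RPSA, also known as the laminin receptor, rose by 0.24 ± 0.06 (edgeR adjusted p = 0.00765), from 1069 ± 87.5 to 1259 ± 55.2 CPM (SD, n = 3), and carries the limit of its 74 pseudogenes. By position, 12 of the 14 proteins listed for the 40S head rose and 1 (RPS15) fell, with a median log2 fold change of 0.45. Of all 32 small subunit genes, 26 rose and 2 fell, with a median of 0.38. Over all genes, 26.3% were called higher and 26.5% lower. Counts this small are read as no result about the position.

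The 2 small subunit genes that fell were RPS26 and RPS15. RPS26 lines the exit channel of the messenger RNA and is mutated in some cases of Diamond-Blackfan anemia, an inherited failure of red cell production. It stood at 206, 241 and 178 CPM in controls and 163, 137 and 154 CPM with miR-885-5p, all lower, with a log2 fold change of -0.46 ± 0.10 (edgeR adjusted p = 0.00325). Its control order was the reverse of most members', with control 2 highest and control 3 lowest, and 30 pseudogenes bear its name. RPS15, of the 40S head, stood at 519, 533 and 501 CPM in controls and 462, 459 and 451 CPM with miR-885-5p. It fell by 0.18 on the log2 scale (SE 0.04, edgeR adjusted p = 0.00254), and limma on log2(FPKM + 1) gave -0.12 with an adjusted p of 0.0819.

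In the large subunit, RPL22L1 and RPLP1 had the largest rises. RPLP1, RPLP2 and RPLP0 form the stalk, the flexible arm that recruits translation factors, and all 3 rose. RPLP0 stood at 2291, 2136 and 2544 CPM in controls and 2917, 2959 and 2899 CPM with miR-885-5p (log2 fold change 0.33 ± 0.06, edgeR adjusted p = 9.45e-04). RPLP2 rose from 491 ± 36.5 to 581 ± 43.6 CPM (SD, n = 3; log2 fold change 0.24, edgeR adjusted p = 0.0101). RPLP1 stood at 430, 337 and 674 CPM in controls and 778, 804 and 634 CPM with miR-885-5p, so control 3 exceeded the lowest miR-885-5p library. Its log2 fold change was 0.62 ± 0.21 (edgeR adjusted p = 0.0282). It was 0.94 without control 3, and the call was lost with DESeq2 (adjusted p = 0.0902), without control 1 (0.0966), without control 2 (0.0519) and without miR-885-5p libraries 1 (0.0828) or 2 (0.0949).

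RPL34, a protein of the 60S solvent side, stood at 84.6, 76.6 and 110 CPM in controls and 151, 133 and 127 CPM with miR-885-5p, and rose by 0.60 ± 0.12 on the log2 scale (edgeR adjusted p = 0.00167). RPL3, which reaches toward the peptidyl transferase center, had the smallest adjusted p of all members. It stood at 1546, 1511 and 1641 CPM in controls and 2185, 2189 and 2101 CPM with miR-885-5p. Its controls were tight and its groups far apart (log2 fold change 0.46 ± 0.04, edgeR adjusted p = 1.48e-05). RPL4, which lines the exit tunnel for the growing protein, was similarly tight, at 1654, 1631 and 1609 CPM against 2073, 2000 and 2055 CPM (log2 fold change 0.32, edgeR adjusted p = 4.67e-05).

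RPL13, RPL15, RPL30 and RPL13A also had small adjusted p-values, with log2 fold changes of 0.43, 0.33, 0.46 and 0.31. None of the 4 had overlapping groups. RPL13A was tight, with 2746 ± 35.7 CPM in controls and 3395 ± 13.7 CPM with miR-885-5p (SD, n = 3). RPL15 is an exception in the deposited FPKM, where limma gave a log2 fold change of 0.21 and an adjusted p of 0.278.

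**Figure D4:**
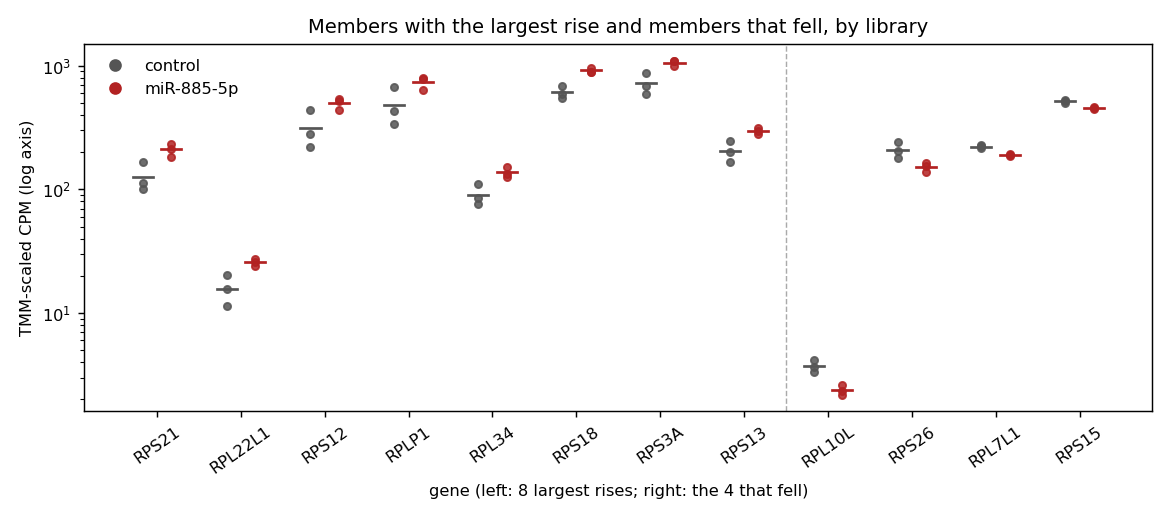
TMM-scaled CPM (log axis) of the 8 members with the largest rise and the 4 members that fell, one point per library, control in grey and miR-885-5p in red, with a bar at the mean of 3 libraries. Of the 12 genes, RPLP1 alone has overlapping groups, and the controls of RPS12 and RPLP1 are widely spread.

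Several members with a large rise were also widely spread among controls. Control 3 was the highest control library for 58 members and control 2 the lowest for 57, and for all 8 members with the largest rise control 3 was highest and control 2 lowest. The highest control library was a median of 1.14 times the lowest over all members and 1.58 times over those 8, against 1.11 and 1.17 among the miR-885-5p libraries. Other genes of at least 100 CPM had a median of 1.07 among controls. In 8 members the highest control was at least 1.5 times the lowest, with RPLP1 at 2.00 and RPS12 at 1.97, and in no member did the miR-885-5p libraries spread that far. Control 3 thus lay nearest to the miR-885-5p libraries, and the count of members that rose was 65 without it.

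The 5S particle joins RPL5 and RPL11 with the 5S ribosomal RNA. RPL5 stood at 720, 669 and 738 CPM in controls and 834, 771 and 764 CPM with miR-885-5p, a log2 fold change of 0.16 ± 0.05 (edgeR adjusted p = 0.0242). That call was lost without control 1 (adjusted p = 0.0562), control 2 (0.0639) or miR-885-5p library 1 (0.108). RPL11 stood at 600, 583 and 563 CPM in controls and 579, 501 and 587 CPM with miR-885-5p, with overlapping groups and a log2 fold change of -0.07 ± 0.06 (edgeR adjusted p = 0.369). Whether RPL5 and RPL11 differ from each other was not tested.

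At the tunnel exit, where the signal recognition particle and chaperones dock, 4 of 8 listed proteins rose and none fell. Their median log2 fold change was 0.10. Of all 51 large subunit genes, 37 rose and 2 fell, with a median of 0.23, and 26.3% of all genes were called higher and 26.5% lower. The 8 are too few to be read as a result about the tunnel exit. Those that rose were RPL17, RPL26, RPL31 and RPL39, and RPL19, RPL22, RPL23A and RPL35 did not pass. RPL19 is among the most abundant members and stood at 1647, 1593 and 1534 CPM in controls and 1620, 1488 and 1659 CPM with miR-885-5p. Its log2 fold change was -0.00 ± 0.05, and its sign depends on the scaling. The other members that did not pass include RPL11, RPL26L1, RPL27, RPL28, RPL36, RPL36A, RPL36AL, RPL38, RPS14, RPS24 and RPS28, whose log2 fold changes ran from -0.22 (RPL36AL) to 0.21 (RPS14). RPS14 (adjusted p = 0.0635 in edgeR) passed with DESeq2 at 0.012, and RPL36 (0.0766) at 0.0262, both as higher. RPL36AL (0.0602 in edgeR) passed as lower with DESeq2 (0.0199), without control 3 (0.00716) and without miR-885-5p library 3 (0.0341). Of the 20 listed genes mutated in Diamond-Blackfan anemia, 14 rose and 1 (RPS26) fell, with a median of 0.31. Among all 83 members, 63 rose and 4 fell, with a median of 0.27, so the anemia list is not set apart from the members.

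The position of the members on chromosome 1 was looked at because genes of its short arm were low as a whole: of 694, 76 were called higher and 387 lower, with a median log2 fold change of -0.23. On that arm lie 4 members, among them RPL22 (chr1:6185020-6209389), RPL11 (chr1:23691742-23696835) and RPL5 (chr1:92831983-92841924), on GRCh38. Only RPL5 of the 4 rose, and their median was 0.03. RPS27 (chr1:153990755-153992155), on the long arm, stood at 276, 273 and 249 CPM in controls and 390, 304 and 387 CPM with miR-885-5p, and rose by 0.44 ± 0.09 (edgeR adjusted p = 0.00216). The part of the arm in the values of these 4 members was not tested. On chromosome 17, 2 of 6 members rose with a median of 0.05. Of all 755 genes there, 160 were called higher and 275 lower, with a median of -0.06. On chromosome 19, 8 of 12 members rose and 1 fell with a median of 0.29. Of its 890 genes, 229 were called higher and 222 lower, with a median of 0.00. Member counts this small are read as no result about either chromosome.

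Paralogues were compared with the gene they resemble. The 6 paralogues in the table were RPL7L1, RPL10L, RPL22L1, RPL26L1, RPL36AL and RPS27L; RPL22L1 and RPS27L rose, RPL7L1 and RPL10L fell, and the other two did not pass. Of the 77 members without them, 61 rose and 2 fell, with a median log2 fold change of 0.30. RPL3L, RPL39L, RPS4Y1 and RPS4Y2 had no row in the deposited table and were not analysed here. Their partners RPL39 and RPS4X rose by 0.53 and 0.45 on the log2 scale (edgeR adjusted p = 0.00722 and 9.41e-05), as did RPL3, given above. The log2 ratio of paralogue to partner was compared in each library, since such a ratio does not depend on scaling between libraries. With 3 libraries against 3, the exact two-sided permutation test cannot give a p below 0.1, so no pair could pass 0.05. Reads may be shared within the near-identical pairs RPL26 and RPL26L1 and RPL36A and RPL36AL.

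RPL22L1 stands beside RPL22, a protein whose loss is known to raise RPL22L1. RPL22L1 stood at 15.6, 11.3 and 20.4 CPM in controls and 27.5, 25.6 and 24.0 CPM with miR-885-5p, and rose by 0.70 ± 0.17 on the log2 scale (edgeR adjusted p = 0.00604). RPL22 stood at 278, 274 and 276 CPM in controls and 287, 268 and 305 CPM with miR-885-5p, and did not pass (log2 fold change 0.06, edgeR adjusted p = 0.353). The log2 ratio was -4.15, -4.59 and -3.75 in controls and -3.38, -3.39 and -3.66 with miR-885-5p. The ratio was thus higher in every miR-885-5p library, by 0.69 (exact permutation p = 0.1, adjusted over 6 pairs 0.12). By FPKM, RPL22L1 made up 8.89% ± 1.19 of the pair in controls and 13.4% ± 1.54 with miR-885-5p (SD, n = 3).

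RPL10L is a retrocopy of the X-linked RPL10, known from male germ cells, and was the least abundant member. It stood at 3.34, 3.65 and 4.20 CPM in controls and 2.33, 2.62 and 2.18 CPM with miR-885-5p, all lower (log2 fold change -0.65 ± 0.17, edgeR adjusted p = 0.00973). RPL10, one of the last proteins to join the 60S subunit, rose from 848 ± 107 to 1152 ± 44.7 CPM (SD, n = 3; log2 fold change 0.44, edgeR adjusted p = 9.73e-04). That call was lost with limma on log2(FPKM + 1), at 0.36 with an adjusted p of 0.0595. The log2 ratio was -7.81 ± 0.14 in controls and -8.90 ± 0.08 with miR-885-5p (SD, n = 3), a difference of -1.09, with no overlap (exact permutation p = 0.1, adjusted 0.12). RPL10L was 0.796% ± 0.0702 of the pair by FPKM in controls and 0.414% ± 0.0425 with miR-885-5p (SD, n = 3).

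RPL7L1, whose protein is less studied than RPL7, stood at 224, 215 and 227 CPM in controls and 194, 191 and 186 CPM with miR-885-5p, all lower (log2 fold change -0.22 ± 0.04, edgeR adjusted p = 8.46e-04). RPL7 rose by 0.36 ± 0.08 on the log2 scale (edgeR adjusted p = 0.00319), from 540 ± 69.5 to 692 ± 11.7 CPM (SD, n = 3). The log2 ratio was -1.26, -1.14 and -1.43 in controls and -1.86, -1.83 and -1.90 with miR-885-5p, a difference of -0.59 with no overlap (exact permutation p = 0.1, adjusted 0.12). By FPKM, RPL7L1 was 9.66% ± 0.936 of the pair in controls and 6.58% ± 0.169 with miR-885-5p (SD, n = 3).

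In the other pairs the ratio moved less. RPL26 rose (log2 fold change 0.30, edgeR adjusted p = 0.00223) while RPL26L1 did not pass (-0.03), and their log2 ratio went from -4.05 ± 0.14 to -4.37 ± 0.14 (SD, n = 3), with no overlap. RPL36AL and RPL36A both failed to pass, and their log2 ratio went from -1.57 ± 0.15 to -1.80 ± 0.02 (SD, n = 3), with no overlap. The exact permutation p was 0.1 for both pairs, the smallest it can be. RPS27L rose with RPS27 (log2 fold changes 0.31 and 0.44, edgeR adjusted p = 0.0133 and 0.00216). Their ratio overlapped between groups, with a difference of -0.12 (exact permutation p = 0.5). That difference was -0.0374 without control 3, -0.0375 without miR-885-5p library 3 and -0.0371 from FPKM, and -0.209 without control 2 and -0.193 without miR-885-5p library 2.

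**Figure D5:**
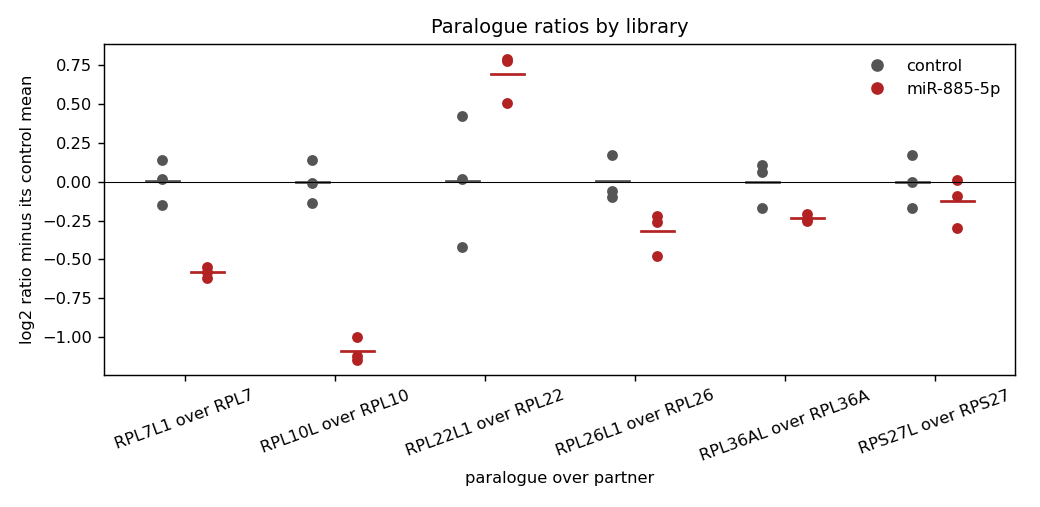
Log2 ratio of paralogue to partner in each library, minus the mean of the 3 controls (vertical axis), for 6 pairs, control in grey and miR-885-5p in red, with a bar at each group's mean. The ratio is higher with miR-885-5p for RPL22L1 over RPL22 (0.69), lower for 4 pairs (to -1.09 for RPL10L over RPL10) and overlapping for RPS27L over RPS27.

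The overexpressed microRNA, hsa-miR-885-5p, lies at chr3:10394531-10394552 on the minus strand (RefSeq, GRCh38.p14). Its mature sequence is shown with the seed, bases 2 to 8, in capitals, followed by the matches found in members' 3′ UTRs (GENCODE 29; for each gene its longest 3′ UTR, often that of a minor isoform), with the matched bases in capitals.
hsa-miR-885-5p: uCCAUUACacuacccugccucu
RPS3: tcagtcctGTAATGGAgaagtgtt
RPS15: cctctcaaGTAATGGctcagcta
RPL27A: agacggcaTAATGGAcgggactt
RPS27L: acagttacTAATGGAatgtgtgt
The RPS3 match pairs with all of bases 2 to 8 and has an A after it (an 8mer, chr11:75402656-75402663, plus strand). It lies in the 3′ UTR of 1 of 11 coding transcripts and is absent from the others. The RPS15 match pairs with bases 2 to 8 (a 7mer-m8, chr19:1440459-1440465, plus strand). It lies in the 3′ UTR of 1 of 12 coding transcripts. In 9 others it overlaps the coding region, which need not hold the whole match. The matches in RPL27A and RPS27L are of the weaker 7mer-A1 type and lie in 1 transcript each.

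An 8mer or 7mer-m8 match was thus found in 2 of 83 members (2.41%), against 986 of 12308 genes with a 3′ UTR (8.01%). Member 3′ UTRs were also shorter, with a median of 493 bases against 1390, and the share was not adjusted for that. RPS3, a head protein at the messenger RNA entry, stood at 560, 504 and 731 CPM in controls and 898, 878 and 759 CPM with miR-885-5p, and rose by 0.50 ± 0.12 on the log2 scale (edgeR adjusted p = 0.00592). RPS15 fell, as given above. RPL27A and RPS27L rose, by 0.19 and 0.31 on the log2 scale. The genes with a match therefore moved in both directions.

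Some ribosomal proteins fall outside the naming rule. FAU, which is made as a fusion to a ubiquitin-like protein, rose by 0.25 on the log2 scale (edgeR adjusted p = 0.0293). RACK1, a scaffold on the 40S head, had a log2 fold change of 0.02 (edgeR adjusted p = 0.628). Other messenger RNAs known for a TOP motif were also listed, many of them elongation and initiation factors. Of these 15, 12 rose and 1 fell, with a median of 0.31, where 26.3% of all genes were called higher and 26.5% lower. This list was made with earlier results of these data known. EEF2 and EIF3E rose by 0.42 and 0.41 (edgeR adjusted p = 7.09e-06 and 1.11e-05), and NPM1, the nucleolar protein nucleophosmin, had a log2 fold change of -0.49 (edgeR adjusted p = 1.28e-05).

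Other genes act on ribosomal proteins. Of 12 escorts and assembly chaperones, 2 rose and 5 fell, with a median log2 fold change of -0.11, where 26.3% of all genes were called higher and 26.5% lower; counts this small are read as no result about the list, and the same holds for the lists of transcription factors and of stress sensing below. GRWD1, which escorts RPL3, fell by 0.37 on the log2 scale (edgeR adjusted p = 1.59e-05), and TSR2, which delivers RPS26, fell by 0.48 (edgeR adjusted p = 4.96e-05). NACA and PDCD2, the latter an escort of RPS2, rose by 0.29 and 0.18 (edgeR adjusted p = 0.00309 and 0.00454). For RPS26 and TSR2 both messenger RNAs were lower, and for RPL3 and GRWD1 they went opposite ways.

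Among 14 genes of mTOR and S6 kinase signaling, 3 rose and 8 fell, with a median log2 fold change of -0.12. Over all genes, 26.3% were called higher and 26.5% lower, and counts this small are read as no result about the list. EIF4EBP1, an inhibitor of cap-dependent translation, fell by 0.61 on the log2 scale, while its relative EIF4EBP2 rose by 0.46 (edgeR adjusted p = 2.09e-05 and 1.22e-05). LARP1, which binds the TOP motif, fell by 0.33 (edgeR adjusted p = 7.49e-05), and TSC2, an inhibitor of mTOR complex 1, rose by 0.50 (edgeR adjusted p = 1.64e-04). MTOR itself fell by 0.12 (edgeR adjusted p = 0.0276). The 8 genes that fell were the inhibitor EIF4EBP1, MTOR, RPTOR, RHEB, LARP1, LARP4 and the S6 kinases RPS6KB1 and RPS6KB2.

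Of 11 transcription factors listed for ribosomal protein promoters, 1 rose and 2 fell, with a median log2 fold change of 0.04. MYC, an activator of ribosome production, had a log2 fold change of -0.23 (edgeR adjusted p = 0.0124), GABPB1, the partner of GABPA at ETS motifs, -0.44 (edgeR adjusted p = 0.00122), and ZBTB7A 0.33 (edgeR adjusted p = 0.00689). Of 6 genes that sense ribosomal stress, 3 rose and 1 fell. ZNF598, a ligase that marks collided ribosomes, rose by 0.22 (edgeR adjusted p = 7.20e-04), MAP3K20, a kinase that senses stalled ribosomes, fell by 0.35 (edgeR adjusted p = 4.26e-05), and MDM2 did not pass (0.07, edgeR adjusted p = 0.33).

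In the authors' deposited table, 64 members had a p under 0.05 with a positive log2 fold change and 5 with a negative one. The log2 fold changes of the authors' deposited table differed from those above by at most 8.96e-04. Across 20 other settings and fits, 46 of the 63 members that rose kept that call throughout and 17 lost it at least once, and 11 of the 16 that did not pass never did. RPS26, RPL7L1 and RPL10L kept their lower call wherever they were tested.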

How the data were processed

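RNA-seq counts of 6 JHH-4 libraries were analysed, 3 per group by sample title. The authors deposited one table: a raw count and an FPKM value for each gene in each library, with the p-value and log2 fold change of their own comparison, whose test the header does not name. Per the submitters' processing notes, the tools included StringTie 2.2.1, HISAT2 2.0.4 and DESeq2 1.38.3 and the build was GRCh38, without their roles; counting tool, annotation release and strand setting are not given there. All columns of values were mapped to a library, and the number not used was 0. Of the rows, 1614 are gene models with no Ensembl ID, and they stayed in the fit.

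From the counts, edgeR 4.0.16 in R 4.3.3 (TMM, filterByExpr, quasi-likelihood F test, prior count 2 for log2 CPM) was fitted on all 14034 rows with Benjamini-Hochberg adjustment and a threshold of 0.05; limma 3.58.1 (log2(FPKM + 1)) and DESeq2 1.42.0 served as alternatives, with other scalings, filters and left-out libraries. Paralogue ratios were tested by exact permutation. The model script was tested on simulated counts of 14034 genes. It recovered 17 of 50 genes changed 1.2-fold, 35 of 50 changed 1.5-fold, 40 of 50 changed 2-fold and 50 of 50 changed 4-fold. A gene that did not pass is therefore not shown to be unchanged. Counts of libraries in one group were not identical within sampling error (chi-square over its degrees of freedom 7.95 to 40.5). The smallest count of a member in a library was 110. Same-numbered libraries of the groups did not deviate together (correlations of -0.184, -0.0575 and -0.15), so numbers were not used as pairs. Sequences are from RefSeq (GRCh38.p14) and GENCODE 29.

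Values of some single genes are not reported here, though counts include them. The members and gene lists were chosen with earlier results of these data known. Named genes are the 8 largest rises, the 8 smallest adjusted p-values upward, every fall, every paralogue pair, the stalk, the 5S particle, RPSA, RPS6, members with a seed match, members on chromosome 1, members that did not pass, and of each other list the 2 smallest adjusted p-values in each direction with LARP1, MYC, MTOR and MDM2; genes named beside a count or a scale, such as RPS2 and PIK3C2A, were chosen after their values were seen.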

Additional observations from a re-analysis of the deposited data

How the results depend on the processing

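The count of members that rose was 53 without miR-885-5p library 1 and 66 with total-count scaling, its extremes. With a replicate block it was 63, with 4 lower, and the block moved the calls of RPL8 (lost) and RPL36 (gained). Large subunit genes called lower went from 2 to 1 with a filter of 5 CPM, since RPL10L was then not tested, and ranged from 2 to 4 when one library was left out, the 4 without control 3. Small subunit genes called lower went from 2 to 1 with limma on FPKM at either pseudocount; the cause was not tested. The share of ribosomal protein genes differed by 2.58 percentage points in summed FPKM against 1.21 in counts. FPKM gives short genes more weight, and the part of that in the difference was not tested. The difference in the log2 ratio of large to small subunit was -0.106 from the mean of log2 CPM against -0.051 from summed counts. Scaling moved the median of all genes by at most 0.05.

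Signs of members that did not pass turned in some settings, with no call on either side and the cause not tested. With total-count scaling the log2 fold changes were 0.05 (RPL19), 0.02 (RPL26L1) and 0.03 (RPS24), and with limma on FPKM at either pseudocount 0.07, 0.05 and 0.03. RPL19 was also 0.01 with upper-quartile scaling, TMM without members or a 5 CPM filter, and 0.00 with named rows only or without chromosome 1. With one library left out, values ran from -0.11 to 0.00 (RPL11), -0.07 to 0.01 (RPL26L1), -0.02 to 0.10 (RPL27), -0.00 to 0.18 (RPL28), -0.10 to 0.13 (RPL36A), -0.07 to 0.04 (RPS24), and from -0.03 to 0.04 (RPL19) and -0.03 to 0.05 (RPL23A). The 3 libraries per group are technical replicates, which limits what any p-value covers.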

Other observations

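Genes whose symbols resemble those of ribosomal proteins were kept out of the counts by the naming rule. Of the genes named RPS6K, kinases or kinase-like proteins, RPS6KA1 and RPS6KA4 were lower (log2 fold changes -0.54 and -0.38, edgeR adjusted p = 2.26e-05 and 2.62e-04), as were RPS6KB1 and RPS6KB2 (-0.40 and -0.23, edgeR adjusted p = 2.24e-04 and 0.00201). RPS6KC1, RPS6KA3 and RPS6KA5 were higher (0.60, 0.26 and 0.20, edgeR adjusted p = 3.70e-05, 4.47e-04 and 0.0428), and RPS6KL1 did not pass (-0.24). The read-through genes RPL17-C18orf32, RPL36A-HNRNPH2 and RPS10-NUDT3 stood at 3.23, 12.1 and 4.19 CPM in controls and 2.08, 13.9 and 5.15 CPM with miR-885-5p, and none passed. RPS19BP1 did not pass either (-0.16, edgeR adjusted p = 0.0924).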
